A study of Arabidopsis thaliana with 6 samples.

Results

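Described here are transcripts that were moderately higher in Arabidopsis seedlings of every line studied after a short cold treatment. They were chosen by their own values. A probe set, the group of short probes that reads 1 transcript, was taken when its log2 difference between 4 °C and 20 °C was at least 1 in each of 3 lines and the mean of the 3 differences was below 2. Its mean log2 level also had to lie at or above the 40th percentile, and intensities entered as log2 of the value plus 14.1. Genes encoded in the plastid and gene symbols starting with COR, EXL, XTH, UGT, ARR, HTB, SWEET or ZAT were left out. This gave 77 probe sets of the 13648 that passed the level filter and of 22810 on the array. The table of probes paired 29 of them with exactly 1 gene and 48 with no gene. At least 2-fold higher in all lines were 120 probe sets (0.879% of those that passed the filter), and the mean difference of 42 of these was 2 or more. The only probe set removed by its symbol was that of UGT78D2.

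The material was whole seedlings, raised on MS plates at 20 °C and taken at 7 days of age, from seed stratified for 4 days at 4 °C. For the last 3 h the plates stood in the light, either at 4 °C or still at 20 °C. Wild-type Col-0 was used beside sfr6 and cls8, 2 EMS mutants in that ecotype, which may carry further mutations. The gene mutated in sfr6 encodes a subunit of the Mediator complex, which links transcription factors to RNA polymerase II, and the gene mutated in cls8 encodes the large subunit of ribonucleotide reductase. Neither gene had a named probe set (0 for each), so the labels could not be checked against them. There was 1 ATH1 array, from 40 to 60 pooled plants, for each of the 6 combinations of line and temperature, so that no group had a replicate. The titles mark both cls8 arrays as repeats, as repeat at 20 °C and repeat2 at 4 °C. A repeat run cannot be told apart from the cls8 genotype. If the repeats were separate runs, run cannot be told apart from temperature within cls8 either.

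Cold is sensed by plant cells within minutes, through calcium signals and transcription factors of the CBF, zinc-finger and other families, and many transcripts follow within hours. Some of these, such as the COR genes, encode protective proteins. Many others encode regulators, enzymes or proteins of unknown role. SFR6 is known as a component that the CBF factors need in order to raise their target genes.

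The arrays were alike in scale, with a median intensity between 41.7 and 45.2 over all probe sets. They had been scaled to the same trimmed mean, so nothing is read from this likeness. Tissue makeup was looked at through 17 markers of root, guard, dividing, phloem, mesophyll and seed cells, of which 5 were measured (PYK10, EXPA7, FMA, AUR1 and LHCB4.1). Their summed intensity ran from 6235 to 8009 on the 20 °C arrays and from 6002 to 7953 on the 4 °C arrays, and none of the 5 read 0 on any array. Most of the sum was PYK10 and LHCB4.1, at 3338 and 4433 on the wild-type 20 °C array, so it says little of the other markers. In limma 0 of the 5 passed for temperature, where 1 had an unadjusted p under 0.05. This was AUR1, of dividing cells, with a log2 difference of -0.34. For sfr6 and for cls8 0 passed, with 0 at that unadjusted level. The defining markers of phloem and seed were not measured, and the part of tissue makeup in the values below was not tested. In RNA from whole seedlings, fewer cells of a type and less RNA per cell cannot be told apart.

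On each 20 °C array the median of the members lay below that of the probe sets that passed the filter, and on each 4 °C array it lay above. Their median intensity at 20 °C was 70.1 (wild type), 64 (sfr6) and 86.1 (cls8), against 93.7, 92.4 and 96.7 for all 13648 probe sets that passed the filter. At 4 °C it was 230.2 (wild type), 201.6 (sfr6) and 278.1 (cls8), against 92.8, 94.3 and 91.6. All 77 had every 4 °C value above every 20 °C value, and 14.5% of all probe sets tested had this pattern. All 77 also passed limma as higher at 4 °C, as did 9.58% of all probe sets, with 9.25% lower and 18.8% changed in either direction. The rule used this contrast, so nothing is read from either count.

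**Figure D1:**
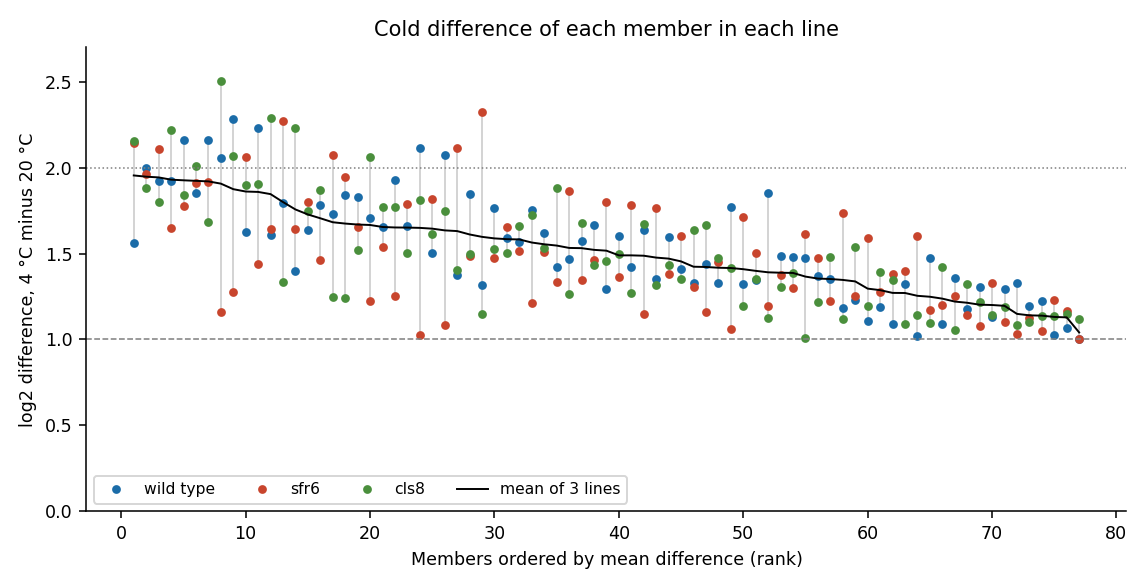
The log2 difference between 4 °C and 20 °C (vertical axis) of the 77 members in each line, ordered by the mean of the 3 lines (black line). Dashed and dotted lines mark the limits of the rule at 1 and 2. The points of 1 member spread over a median range of 0.33, and no line is lowest or highest throughout.

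Among the members, the size of the cold difference was much the same in the 3 lines, as the rule favours. Its median over the members was 1.48 on the log2 scale for the wild type and 1.46 for either mutant, where the median over all probe sets lay at -0.04, -0.01 and -0.05. The smallest of the 3 differences of a member was that of the wild type for 20 members, that of sfr6 for 32 and that of cls8 for 25. Within a member the 3 differences spanned a median of 0.33. They spanned less than 0.5 for 48 members and at least 1 for 4. The rule itself sets a floor under each line and a cap on the mean of the 3, and both hold the lines together. These values are a description, and nothing is read from the likeness of the lines. The plot of differences by line shows that the 3 lines cross along the whole list.

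The limits of the rule cut through a continuous range of values. Just inside the lower limit, the smallest of the 3 differences was 1.00 for 259595_at, 1.01 for 252374_at and 1.02 for AT1G69570. Just outside, it was 0.99 for AT5G58900, TINY2 and AT1G51610. Just inside the upper limit, the mean difference was 1.95 for 266719_at and AT3G23170 and 1.94 for 252123_at. Just outside, it was 2.00 for 260410_at and 2.01 for AT4G34950 and 263128_at. The 2 unnamed members with the largest mean differences were 266719_at and 252123_at. Probe set 266719_at read 101, 105.9 and 65.9 at 20 °C in the wild type, sfr6 and cls8, and 325.6, 516.7 and 342.8 at 4 °C. Probe set 252123_at read 75.7, 58.9 and 97 at 20 °C, and 326, 301 and 372.4 at 4 °C. In both, the lowest 4 °C value was well above the highest 20 °C value, as the rule favours.

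Light signalling was represented by 3 of the 29 named members. HYH encodes a bZIP transcription factor, a close relative of HY5, which promotes the development of seedlings in light. It read 42.7 (wild type), 47.9 (sfr6) and 37.9 (cls8) at 20 °C, and 125.2, 201.6 and 128.7 at 4 °C. The sfr6 array was the highest at 4 °C, and all 3 values at 20 °C lay close together. AT3G44450, which encodes an inhibitor of the cryptochrome blue-light receptors, read 151.6, 71.3 and 185.1 at 20 °C in the same order, and 416, 355.5 and 512.6 at 4 °C. Here sfr6 was lowest at both temperatures, and its linear ratio of 4.99 was larger than the 2.74 of the wild type and the 2.77 of cls8. AT2G16365, which encodes a protein that binds phytochrome B and restrains hypocotyl growth, read 87, 50.6 and 91 at 20 °C, and 239.4, 162.8 and 278.1 at 4 °C. It too was lowest in sfr6 at both temperatures. The mean log2 differences of the 3 genes between the temperatures lay between 1.42 and 1.63.

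Regulators of transcription and zinc-finger proteins made up 6 named members. AT5G50450, with a MYND zinc finger, read 90.1 (wild type), 77 (sfr6) and 110.5 (cls8) at 20 °C, and 452, 330.1 and 385.4 at 4 °C. AT5G46710, of the PLATZ family of plant zinc-binding factors, read 78.2, 75.6 and 90.5 at 20 °C, and 385.8, 168.3 and 352.5 at 4 °C. The 3 lines began at almost the same level for AT5G46710, and sfr6 reached less than the other two at 4 °C, with a linear ratio of 2.23 against 4.93 in the wild type and 3.9 in cls8. AT1G69570, a DOF zinc-finger factor, ran the other way. It read 64.2, 93.2 and 52.1 at 20 °C and 144.4, 311.4 and 132.2 at 4 °C, so that sfr6 was the highest line at both temperatures. AT2G44670 and AT4G17670 both belong to the FLZ family of small zinc-finger proteins. AT2G44670 read 189.3, 178.6 and 208.7 at 20 °C, and 632.1, 517.7 and 587.3 at 4 °C. AT4G17670 was dimmer, with a mean intensity of 36.7 ± 4.26 (SD, n = 3 lines) at 20 °C and 119 ± 12.1 at 4 °C. Intensities of different probe sets do not compare the amounts of their transcripts, so only their changes are set side by side, and the mean log2 difference was 1.52 for AT2G44670 and 1.39 for AT4G17670. AT1G07050, with a CCT domain as found in CONSTANS, had a mean intensity of 17.5 ± 4.16 at 20 °C and 73.5 ± 4.31 at 4 °C.

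A further 3 members belong to signalling or to proteins known from stress tolerance. AT3G55580, of the RCC1 family and known for a role in chilling and freezing tolerance, read 13.5 (wild type), 19.4 (sfr6) and 18.3 (cls8) at 20 °C, and 91, 65.8 and 96.6 at 4 °C. Its values at 20 °C lay near 14.1, the amount added before the logarithm, so that its log2 difference is smaller than its linear ratio of 3.39 to 6.74 would give. AT5G54130, a member of a calcium-binding family of endonucleases, exonucleases and phosphatases, read 38.2, 31.2 and 32.8 at 20 °C, and 147.4, 174.8 and 160.5 at 4 °C. The groups were far apart, as the rule favours, and the lines alike. AT3G28270, a membrane-associated protein known from responses to low water potential, had a mean intensity of 72 ± 12.2 at 20 °C and 227.1 ± 27.1 at 4 °C.

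Enzymes of metabolism came to 3 members. AT1G06000 encodes a rhamnosyltransferase of flavonols. It belongs to the UGT family and stayed in because the table lists it by its locus, not by a symbol starting with UGT. It read 45.2 (wild type), 28.3 (sfr6) and 69.2 (cls8) at 20 °C, and 182.6, 164.2 and 183.3 at 4 °C. The lines differed at 20 °C and were close at 4 °C. AT3G51660, of the tautomerase family related to macrophage migration inhibitory factor, read 151.2, 134.8 and 171.2 at 20 °C, and 508.8, 500.5 and 511.1 at 4 °C. The 3 lines lay close together at 4 °C, with a mean of 506.8 ± 5.58. AT4G29610, of the cytidine deaminase family, was dim, with a mean intensity of 20.1 ± 3.67 at 20 °C and 64.4 ± 4.5 at 4 °C.

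The cell wall and defence were represented by 2 members. AT1G20030 encodes a thaumatin-like protein of the pathogenesis-related kind. It read 90.3 (wild type), 49.5 (sfr6) and 104.5 (cls8) at 20 °C, and 338, 133.2 and 378.5 at 4 °C, lowest in sfr6 at both temperatures. ATPMEPCRB, a pectin methylesterase that modifies cell wall pectin, read 31.9, 29.8 and 30.6 at 20 °C, and 93.5, 76.9 and 84.3 at 4 °C. Its mean log2 difference of 1.14 was the smallest of the named members.

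**Figure D2:**
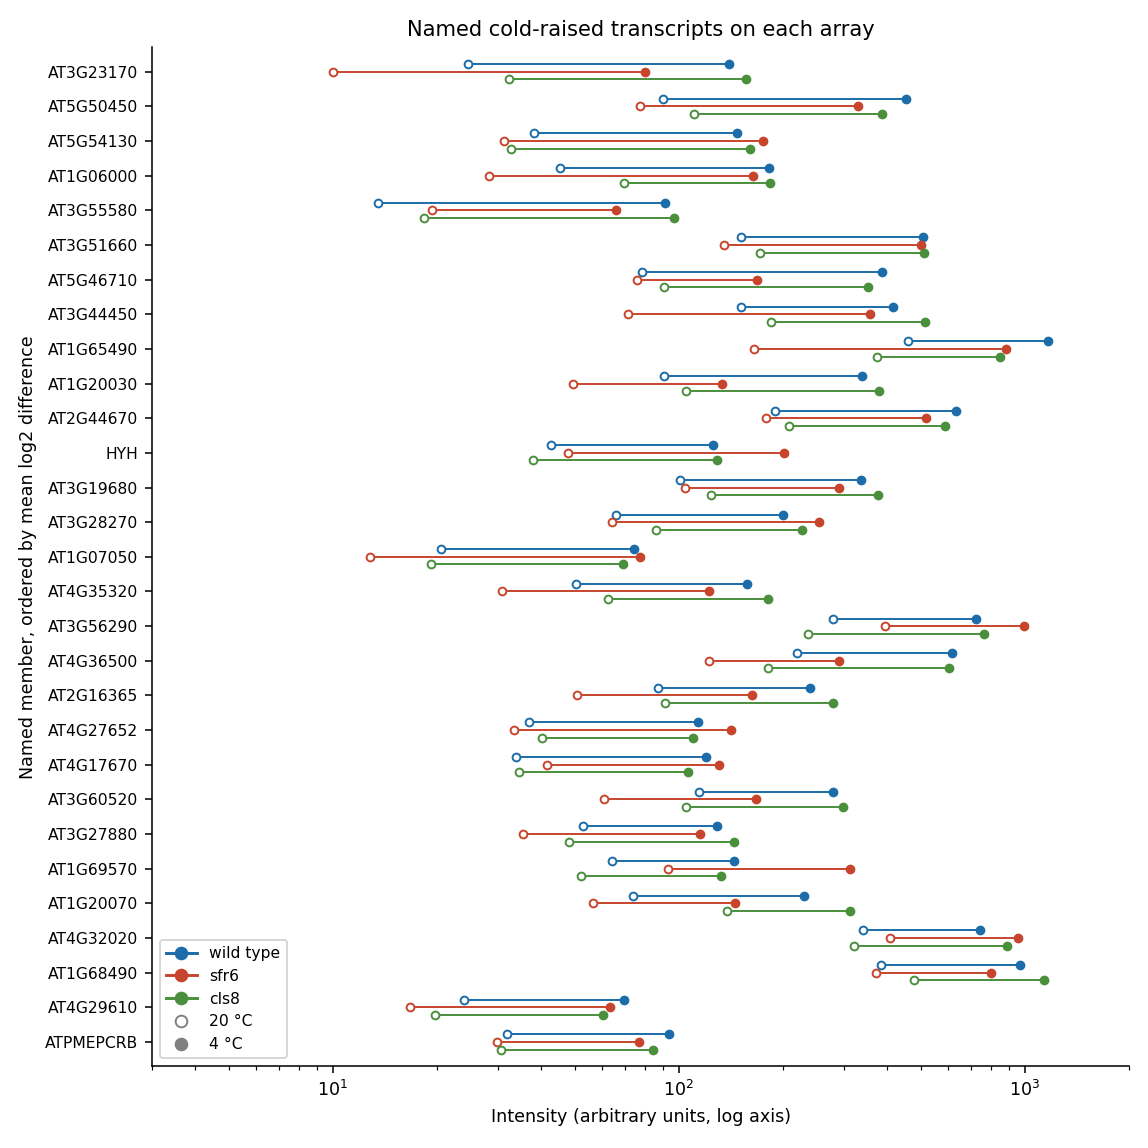
Intensity on each array (horizontal, log axis) of the 29 named members, ordered by mean log2 difference from AT3G23170 at 1.95 to ATPMEPCRB at 1.14. Open circles are 20 °C, filled circles 4 °C, and each line joins the 2 arrays of 1 plant line. Every filled circle lies to the right of all open circles of its gene, as the rule favours.

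For 12 named members no role is stated here. AT3G23170 had the largest mean difference of a named member and read 24.5 (wild type), 10 (sfr6) and 32.2 (cls8) at 20 °C, and 139.9, 80 and 156.4 at 4 °C. AT1G65490 read 459.6, 164.7 and 374 at 20 °C, and 1166, 882.5 and 846.3 at 4 °C. In AT1G65490 the sfr6 array was far below the others at 20 °C only, and its log2 difference between the temperatures was 2.33 against 1.32 in the wild type and 1.15 in cls8. Among the brighter probe sets, AT1G68490 read 382.7, 371 and 478.9 at 20 °C, and 968.5, 799.3 and 1135 at 4 °C. AT4G32020 read 340.7, 406.8 and 321.5 at 20 °C, and 739.8, 954.6 and 886 at 4 °C. Both had the lines within a narrow band at each temperature. AT3G56290 read 278.2, 394.6 and 235.9 at 20 °C, and 720.4, 996.6 and 762.3 at 4 °C, with sfr6 the highest line in each case. AT4G36500 read 218.7, 121.8 and 181.2 at 20 °C, and 617.4, 290.1 and 604.6 at 4 °C, with sfr6 the lowest. AT3G19680 read 100.9, 103.8 and 123.9 at 20 °C, and 335.2, 289.7 and 376.3 at 4 °C. AT3G60520 read 114.3, 60.8 and 104.7 at 20 °C, and 279, 167.3 and 298.2 at 4 °C. Of these 2, AT3G19680 was alike in the lines and AT3G60520 was lower in sfr6 throughout. The remaining 4, AT4G35320, AT4G27652, AT3G27880 and AT1G20070, had mean log2 differences from 1.25 to 1.45.

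The 48 members with no gene in the probe table covered the same range, with mean log2 differences from 1.04 to 1.95 and a median of 1.55, beside a median of 1.48 for the named ones. Their mean intensity ran from 12.9 to 690.1 at 20 °C and from 67 to 1536 at 4 °C. The brightest was 263249_at, and the dimmest at 20 °C was 259925_at, which read 29.5 (wild type), 5.3 (sfr6) and 4 (cls8). At 4 °C it read 100.9, 46.4 and 70.8. Its linear ratio of 17.7 in cls8, the highest of any member in any line, rests on that low value. In all, 5 members read below 14.1 on some array, namely AT3G23170, AT3G55580, AT1G07050, 245250_at and 259925_at. The lowest linear ratio of any member in any line was 2.15. Of the member probe sets, 2 carry the suffix s_at, which marks probes shared by several transcripts, so their values may mix transcripts.

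The members' levels were also compared between lines, as the difference between a mutant and the wild type over both temperatures. The rule did not use this difference. It did use the mean level and the cold difference of each line, and the spread of the cold differences between lines is the residual from which the p-values of this comparison come. Counts of members that passed are therefore a description, given beside the share of all probe sets, and nothing is read from the gap between them. In sfr6, 8 of the 77 members passed as lower than in the wild type and 0 passed as higher, while by sign alone 48 (62.3%) lay below the wild type and 29 above it, where 47.8% of all probe sets lay below. Among them were AT4G36500 and AT3G60520, of unstated role, AT1G20030 of the thaumatin-like family, and AT3G23170. The share of members that passed as lower was 10.4%, where 0.975% of all 13648 probe sets did, 0.366% passed as higher and 1.34% in either direction. At an unadjusted p under 0.05, 23 members were lower, or 29.9% against 6.32% of all probe sets, and 11 were higher, or 14.3% against 5.14%. The median log2 difference of the members was -0.14, beside 0.01 over all probe sets tested. This was limma's moderated test with terms for line and temperature, two-sided, adjusted by the Benjamini-Hochberg method over all probe sets.

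**Figure D3:**
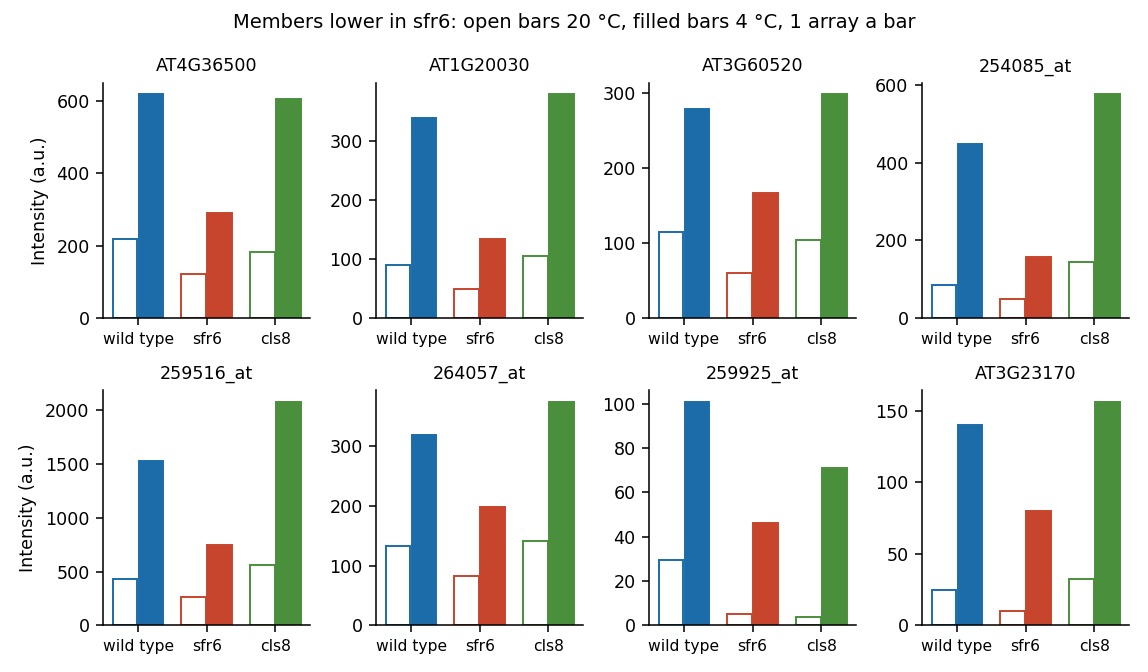
Intensity (vertical axes, from 0, with a scale of its own for each panel) on the 6 arrays of the 8 members that passed limma as lower in sfr6. Open bars are 20 °C and filled bars 4 °C, with no error bars because each bar is 1 array. The sfr6 bars are below those of the wild type at both temperatures in all 8 panels, and below those of cls8 except for 259925_at at 20 °C.

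For AT4G36500, sfr6 minus wild type came to -0.92 ± 0.14 on the log2 scale (SE, limma adjusted p = 0.0184), and sfr6 was lower in 2 of 2 temperature pairs, as it was for the other 7. The fitted difference is the mean of those 2 pairs, so their like sign adds nothing to the call. The difference was -0.99 ± 0.15 for AT1G20030 (limma adjusted p = 0.0201) and -0.73 ± 0.12 for AT3G60520 (limma adjusted p = 0.0228). For AT3G23170 it was -0.70 ± 0.13, with a limma adjusted p of 0.0487, close to the threshold. The other 4 had no gene in the probe table. Probe set 254085_at read 84.2 (wild type), 49.1 (sfr6) and 143.5 (cls8) at 20 °C, and 447.8, 157.4 and 575.6 at 4 °C, with a log2 difference for sfr6 of -1.03. Probe set 259516_at read 434.1, 262.2 and 557.2 at 20 °C, and 1527, 747.5 and 2076 at 4 °C, with a log2 difference of -0.86. Each had its lowest value of either temperature in sfr6 and its highest in cls8. Probe set 264057_at read 132.5, 82.2 and 140.8 at 20 °C, and 317.2, 198.2 and 373.8 at 4 °C, with a log2 difference of -0.62. For 259925_at, given above, it was -1.05, and cls8 was also below the wild type there.

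The count of lower members changed whichever array was left out, and was then smallest without the sfr6 array at 4 °C. A line that loses an array has 1 left, so the loss of calls is not assigned to the array dropped. Without the sfr6 array at 4 °C, the log2 differences of the 8 ran from -0.96 to -0.57. Without that array 1 member passed for sfr6, and it was lower. Without either wild-type array, or without the sfr6 array at 20 °C, 5 passed in each case, of which 4 were lower. Without either cls8 array 15 passed, 12 lower and 3 higher. Among fits with an array dropped, the count over all probe sets moved in the same directions. It too was smallest when sfr6 at 4 °C was dropped and largest when cls8 at either temperature was dropped. Nothing particular to the members is therefore read from these changes. With no filter on the mean level 0 passed, where 18 of 22746 probe sets passed in all.

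Other members differed in sfr6 by a similar size and did not pass. The log2 difference was -0.58 for AT2G16365 (limma adjusted p = 0.0571), -0.59 for AT3G44450 (limma adjusted p = 0.201) and -0.90 for AT1G65490 (limma adjusted p = 0.144). At 20 °C AT3G44450 lay at -0.96 and at 4 °C at -0.22, and for AT1G65490 it was -1.41 and -0.40, so that the distance from the wild type was smaller in the cold. AT5G46710 had the reverse order, with -0.04 at 20 °C and -1.13 at 4 °C, and an adjusted p in limma of 0.337 over both. On the other side, the log2 difference was 0.75 for AT1G69570 (limma adjusted p = 0.0644), 0.59 for 249798_at (limma adjusted p = 0.0546) and 0.38 for HYH (limma adjusted p = 0.379). Also higher without passing were 245250_at at 0.69, 261191_at at 0.64 and 252414_at at 0.54. Also lower without passing were 250207_at at -0.62 and 250533_at at -0.59. Differences at a single temperature come from 1 pair of arrays and were not tested.

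**Figure D4:**
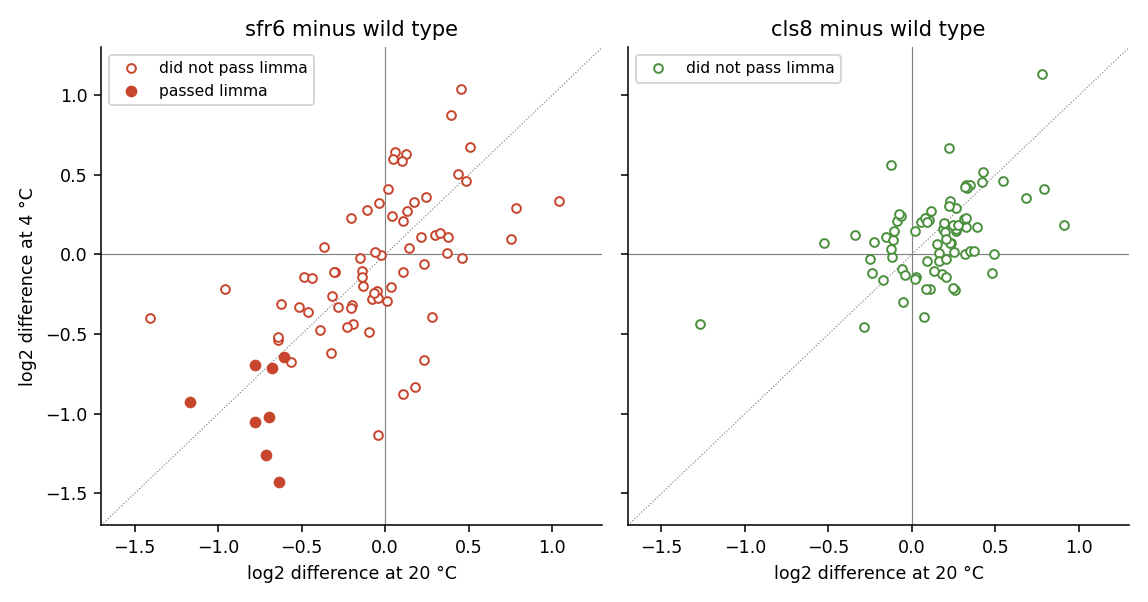
The log2 difference of each member from the wild type at 20 °C (horizontal) and at 4 °C (vertical), for sfr6 (left) and cls8 (right), with 1 point for each of the 77 members. Filled points passed limma over both temperatures, 8 for sfr6 and 0 for cls8. On the dotted diagonal the distance from the wild type is the same at both temperatures.

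Taken one temperature at a time, sfr6 lay below the wild type for 44 members at 20 °C and for 48 at 4 °C, with a median log2 difference of -0.06 and -0.14. These counts are 57.1% and 62.3% of the members, and 50.3% and 46.6% of all probe sets tested lay below, with medians of -0.003 and 0.02. At least 2-fold, 2 members were lower and 1 was higher at 20 °C, and 5 were lower and 1 was higher at 4 °C. Of all 13648 probe sets, 108 were lower and 25 higher by that much at 20 °C, and 117 and 46 at 4 °C. The levels at a single temperature enter the rule, so these values are a description.

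In cls8 the members lay slightly above the wild type, without any single member passing. The same limit holds for the p-values here. In limma 0 of the 77 passed, where 0.117% of all probe sets did, 0.0659% as higher and 0.0513% as lower. At an unadjusted p under 0.05, 12 members were higher, or 15.6% against 3.19% of all probe sets, and 1 was lower, where 3.2% of all probe sets were. The median log2 difference was 0.15, beside -0.01 over all probe sets tested, and 57 of the 77 members (74.0%) lay above the wild type, where 47.8% of all probe sets did. Among the 29 named members the median was 0.02, 62.1% lay above the wild type and 1 was higher at that unadjusted level. Nothing is read from these shares, since a repeat run cannot be told apart from the cls8 genotype. Over all 77 members the largest difference was that of 258158_at, which read 56.7 (wild type), 83.4 (sfr6) and 107.2 (cls8) at 20 °C, and 217.3, 213.9 and 493.4 at 4 °C. Its log2 difference of 0.95 ± 0.18 had a limma adjusted p of 0.203. It was the member with the smallest adjusted p for cls8, and passed only in the fit without the cls8 array at 20 °C, at 1.25. The difference of AT1G20070 was 0.60, higher in cls8 at 2 of 2 temperatures (limma adjusted p = 0.354). Both mutants were set against the same wild-type arrays, and the difference between sfr6 and cls8 was not tested.

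Position and length were also looked at, since the rule did not use them. The 29 named members lay on all 5 chromosomes, with 7 on chromosome 1, 2 on chromosome 2, 10 on chromosome 3, 7 on chromosome 4 and 3 on chromosome 5. In percent these are 24.1, 6.90, 34.5, 24.1 and 10.3, beside 25.6, 14.9, 20.4, 14.9 and 24.2 of the 7190 probe sets that passed the filter and had a nuclear protein-coding gene in the RefSeq table. The genes were shorter than most, with a median length of 1381 bases, introns included, against 2339 for those 7190. They ranged from 684 to 5401 bases. These shares and medians are descriptions of the named members alone, since 48 members have no gene in the table.

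Only AT1G20030 and AT1G20070 were found within 10 genes of each other, 4 genes apart on chromosome 1. Both lay below the wild type in sfr6 at 2 of 2 temperatures, but AT1G20070 did not pass (log2 difference -0.47, limma adjusted p = 0.16). Genes up to 2 places away on either side were measured for 21 of the named members, with 33 probe sets of 32 neighbouring genes. Their median log2 difference between 4 °C and 20 °C was -0.06. In limma 2 of the 33 rose and 1 fell at 4 °C, where 9.58% of all probe sets rose and 9.25% fell. The neighbour next to AT1G68490 is AT1G68500, which rose by a log2 difference of 2.20 ± 0.38 (limma adjusted p = 0.0045). AT1G68500 read 52.6 (wild type), 18.4 (sfr6) and 39.7 (cls8) at 20 °C, and 456.7, 38.2 and 445.6 at 4 °C. AT1G68490 had log2 differences between the temperatures of 1.31, 1.08 and 1.22 in the wild type, sfr6 and cls8. The other neighbours that passed were AT1G07070, which is near AT1G07050 and had a log2 difference of 0.62, and TUB5, a beta-tubulin near AT1G20030, at -0.54.

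Known early cold genes were compared through 11 lists of 136 genes: early transcription factors, calcium sensors, MAP kinase signalling, PP2C phosphatases, ethylene response factors, jasmonate genes, ubiquitin and SUMO ligases, RNA helicases and chaperones, LEA and ERD proteins, membrane lipid enzymes and heat shock proteins. Most of these genes had no named probe set, and 11 probe sets of 4 lists could be used. Of these, 5 rose in limma at 4 °C, 0 fell and 6 did not pass, where 9.58% of all probe sets rose. The lists were chosen with earlier results of these data known, so nothing is read from the gap to that share. Their median log2 difference was 0.27, beside -0.04 over all probe sets. AT1G69570 was the only member of the 77 on a list, and it is one of the 5, where its choice as a member used this contrast. In its list of 26 early transcription factors, 3 were measured. The zinc-finger repressor STZ had a rise of 2.57 ± 0.19 (limma adjusted p = 4.82e-05), and WRKY22, at -0.09, did not pass. Both LEA proteins measured rose, LTI30 by 1.11 ± 0.15 and COR47 by 0.70 ± 0.14 (limma adjusted p = 0.0014 and 0.0102). Both rose least in sfr6, and so did STZ, while AT1G69570 rose most in sfr6. STZ read 26.2 (wild type), 22.2 (sfr6) and 29.4 (cls8) at 20 °C, and 265, 124.3 and 332.1 at 4 °C. The rise in a single line comes from 1 pair of arrays, and its difference between lines was not tested. LTI30 read 365.9 (wild type), 107.6 (sfr6) and 366.7 (cls8) at 20 °C, and 847, 176.7 and 1074.5 at 4 °C. Over both temperatures it was lower in sfr6 than in the wild type (log2 difference -1.91, limma adjusted p = 0.0019). COR47 read 838.2, 609.5 and 1055.8 at 20 °C, and 1451.2, 775.1 and 2108.1 at 4 °C. Its log2 difference for sfr6 over both temperatures was -0.67 and did not pass (limma adjusted p = 0.13). PRH75, a DEAD-box RNA helicase, rose by 0.49 ± 0.09 (limma adjusted p = 0.0072), and least in cls8. Of the ubiquitin and SUMO ligases, 0 of 5 probe sets passed, with 1 at an unadjusted p under 0.05.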

How the data were processed

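RNA of whole seedlings was hybridised to 6 Affymetrix ATH1 arrays, per the labels' protocols. The authors deposited linear intensity. Each array's mean is 100 after trimming 2% at either end, a scaling found from the values. The software was not given in the sources used here. No detection calls were used. The 14.1 added before log2 is the 25th percentile of all values. Of 22810 probe sets, 64 controls were set aside. Exactly 1 gene was paired with 13513, several with 503 and none with 8730, and 13436 of the 13513 matched a RefSeq table of the TAIR10.1 assembly, used for names, lengths and gene order. The 13648 probe sets at or above the 40th percentile of mean log2 were fitted with limma 3.58.1 in R 4.3.3 (eBayes with an intensity trend, additive terms for line and temperature), with 2 residual degrees of freedom and a prior of 6.82, and called at an adjusted p of 0.05. The labels do not say that plants came from separate cultures, and the p-values measure the spread between these arrays alone. The number of arrays limits the precision. The rule for named genes allowed every member with 1 gene, with values on each array for the 12 largest differences, the 12 highest levels, members called for a mutant and members on a list. Those of AT2G16365, ATPMEPCRB and 258158_at were added after their values were seen. The members and lists were chosen with earlier results of these data known. Roles were assigned after the members were seen. The alternatives were other pseudocounts, filters, normalization and trend settings, no term for line, and leaving out each array. No sequences were used here.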

Additional observations from a re-analysis of the deposited data

How the results depend on the processing

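The rule gave 60 of the same members with a pseudocount of 1 (88 in all), 46 with the median of all values (68 in all) and 75 after quantile normalization (82 in all). It gave 90 with no filter and 63 with a filter at the 60th percentile. For sfr6 the count of members that passed, 8 in the fit as reported, was 5 with the median as pseudocount, 4 with no intensity trend, 0 with no filter and 1 to 15 with an array left out. Of all probe sets, 183 passed for sfr6, 18 with no filter and 65 to 411 with an array left out. The lowest count came without the sfr6 array at 4 °C and the highest without a cls8 array. Of the 12 alternatives, AT4G36500 and AT1G20030 each passed 10, failing with no filter and without the sfr6 array at 4 °C. AT3G60520 passed 8, 254085_at and 259516_at 7 each, 264057_at 4, 259925_at 4 of the 10 in which it was tested, and AT3G23170 2 of 11. For cls8, 16 probe sets passed, 4 with no filter, 9 with a filter at the 60th percentile and 14 to 27 with an array left out, and 0 to 1 members. For temperature, 2570 passed, 1445 with no filter, 1589 with no term for line and 1528 to 2290 with an array left out. COR47 did not pass with no filter, and LTI30 and COR47 did not pass with no term for line. The cause of these changes was not tested. With the 5 dimmest-reading members set aside, an alternative chosen after seeing the data, 6 of 72 passed for sfr6. None of the 31 single values tried under the alternatives changed direction, from which nothing is read. The values for the mutants were those with an unadjusted p under 0.01 in limma, and those for temperature were list genes that passed. Filter and trend settings, and leaving out an array of the line not compared, leave a mutant's estimate unchanged. The planned description of promoter motifs was not run.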
